A study of Mus musculus with 12 samples.

Results

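The 10 core genes of the mTOR and Akt pathway, Mtor, Rptor, Rictor, Rps6kb1, Eif4ebp1, Akt1, Akt2, Tsc1, Tsc2 and Rheb, were followed in mouse aortic tissue before and during BAPN + AngII challenge. They were chosen by name: a gene was a member if its symbol stood in the gene name column of the arrays, and all 10 were among the 22761 genes tested. The array holds 19 probes for them among 55681 probes, and 17 of the 19 passed the filter on dim probes, each well above background on all 12 arrays. Expression was measured in 4 groups of 3 one-colour arrays each, all from aorta of male mice of the strain labelled 129S5/SvEvBrd, C57BL6 and SJL that were homozygous for a floxed Socs3 allele (Socs3fl/fl). WT mice lacked Cre and smSocs3-KO littermates carried the SM22-Cre transgene, driven by a smooth muscle promoter, so deletion is confined by design to cells in which SM22 is active. One group of each genotype received no infusion, and the other received BAPN (150 mg/kg/day) and AngII (1000 ng/kg/min) from osmotic minipumps for 3 days. BAPN blocks the cross-linking of collagen and elastin, AngII is the effector peptide of the renin-angiotensin system, and the combination is used to induce aortic dissection in mice. None of the 12 arrays came from a mouse given rapamycin. Nothing in the labels ties an array to more than one sample, so p-values measure the spread between these samples.

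mTOR is a kinase that works within separate complexes. In mTORC1, which contains Raptor (Rptor), it drives translation and cell growth by phosphorylating p70 S6 kinase (Rps6kb1) and the translation repressor 4E-BP1 (Eif4ebp1). In mTORC2, which contains Rictor, it phosphorylates Akt. Akt in turn inhibits the Tsc1-Tsc2 complex, which otherwise keeps the small GTPase Rheb, the direct activator of mTORC1, switched off. Rapamycin inhibits mTORC1, and the pathway is known in the arterial wall for its part in smooth muscle growth and in the choice between a contractile and a proliferating state. Most of its regulation is by phosphorylation, which RNA arrays do not measure.

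Several series-wide facts touch the results. The share of spots well above background ran from 55.4% to 61.2% over the arrays. All 6 WT arrays and smSocs3-KO before challenge replicate 1 were on slide 1, and the other 5 smSocs3-KO arrays were on slide 2, so the WT response lies within a slide while genotype and slide largely cannot be told apart. The Socs3 transcript did not differ detectably between genotypes (difference before challenge 0.49 ± 0.53 SE, at day 3 1.52 ± 0.53, log2, limma adjusted p = 1 and 0.208). Whether its probe lies in the deleted part was not looked up, and smSocs3-KO below means the arrays with that label. The smooth muscle markers Acta2 and Myh11 were well above background on all 12 arrays. WT day 3 replicate 4 stood apart from the other WT day 3 arrays, with Mki67, a proliferation marker, at 1.69 against 4.53 and 4.65. Counts without it are given beside the results.

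Sequences are shown for 3 promoters and 2 probes on which the values below bear. Promoters are RefSeq windows of build GRCm38.p6, from 250 bases before to 50 after the start of transcription, and 9 of the 10 members had at least one window, Eif4ebp1 being the other. The windows are those of Tsc1, one of the members that changed, of Rheb, the member with a CACGTG E-box in its window, and of Asns, the enzyme of asparagine synthesis, which rose together with Eif4ebp1. They lie at chr2:28640983-28641282 on the plus strand, chr5:24842312-24842611 on the minus strand and chr6:7693160-7693459 on the minus strand. Capitals mark CACGTG, the E-box, or TGATGNAA, the core of the element read by ATF4 with C/EBP proteins, searched on both strands.
Tsc1 promoter: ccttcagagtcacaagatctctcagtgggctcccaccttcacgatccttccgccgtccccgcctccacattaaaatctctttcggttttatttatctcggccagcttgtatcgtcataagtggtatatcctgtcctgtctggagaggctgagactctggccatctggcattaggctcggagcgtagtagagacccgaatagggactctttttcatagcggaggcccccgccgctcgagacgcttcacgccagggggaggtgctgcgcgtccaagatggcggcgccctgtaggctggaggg
Rheb promoter: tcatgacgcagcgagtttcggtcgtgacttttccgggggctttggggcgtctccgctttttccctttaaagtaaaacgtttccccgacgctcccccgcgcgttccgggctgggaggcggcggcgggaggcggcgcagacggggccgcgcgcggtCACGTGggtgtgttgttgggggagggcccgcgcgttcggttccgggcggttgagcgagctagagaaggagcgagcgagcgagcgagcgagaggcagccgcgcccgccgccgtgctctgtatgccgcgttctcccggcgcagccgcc
Asns promoter: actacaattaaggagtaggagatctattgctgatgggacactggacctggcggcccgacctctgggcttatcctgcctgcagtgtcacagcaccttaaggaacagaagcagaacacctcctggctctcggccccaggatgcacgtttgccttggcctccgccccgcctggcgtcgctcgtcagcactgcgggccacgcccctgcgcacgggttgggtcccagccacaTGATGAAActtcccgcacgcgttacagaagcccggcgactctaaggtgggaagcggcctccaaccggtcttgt
The E-box was in 7.15% of the 32851 windows of all genes and in 1 of the 13 windows of the members, at position -96 from the start in Rheb. TGATGNAA was in 3.97% of all windows and in 1 of the members' 13, a window of Akt2 (1 of its 4) that holds it on the minus strand at -85, while the Asns window holds it at -23. Neither run of letters was in the Tsc1 window.

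Probes of 60 bases lie on the mRNAs themselves. The following probes lie, in mm9 coordinates, at chr7:28418226-28418285 on the plus strand (Akt2) and at chr11:86346290-86347534 on the minus strand (Rps6kb1, a span of 1245 bases that the 60 bases of the probe match only in part). They are shown because these genes were read by several probes that did not all give the same value. The printed Akt2 probe gave a mean challenge response near that of the brightest one (-0.09 and -0.02). The Akt2 probe that lay furthest off, A_66_P135179 (-0.57), is not printed.
Akt2 A_55_P2066523: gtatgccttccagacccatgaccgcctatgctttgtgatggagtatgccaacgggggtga
Rps6kb1 A_52_P170486: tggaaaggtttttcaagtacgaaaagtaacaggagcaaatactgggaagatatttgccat

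Eif4ebp1 was the member that rose with BAPN + AngII challenge, about 2-fold in each genotype, and Tsc1 fell slightly in the mean of both genotypes. The other 8 members did not pass the test in any comparison. Levels are given as log2 signal relative to the 75th percentile of the same array and compared only within a probe. Differences are day 3 minus before challenge or smSocs3-KO minus WT, in log2. A gene was called at a Benjamini-Hochberg adjusted p under 0.05 in limma over all genes tested.

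In WT aorta, 1 of the 10 members was called, where 4.68% of all genes were called. In smSocs3-KO aorta, 1 of 10 was called against 2.45% of all genes (1.71% higher). In the mean of both responses, 6 arrays against 6, 2 of 10 were called against 22.7%, 1 higher where 13.6% of all genes were and 1 lower where 9.18% were. The median difference of the members was -0.11 in WT, -0.06 in smSocs3-KO and -0.08 in the mean response, beside -0.02, -0.06 and -0.05 over all genes tested. At the threshold used for the study's gene network (unadjusted p under 0.01 and a fold over 4 in either direction), no member passed in any of these, where 1.28%, 1.63% and 1.27% of all genes did. At an unadjusted p under 0.05, 2, 1 and 5 members passed, where 26.6%, 23.8% and 39.1% of all genes did.

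**Figure D1:**
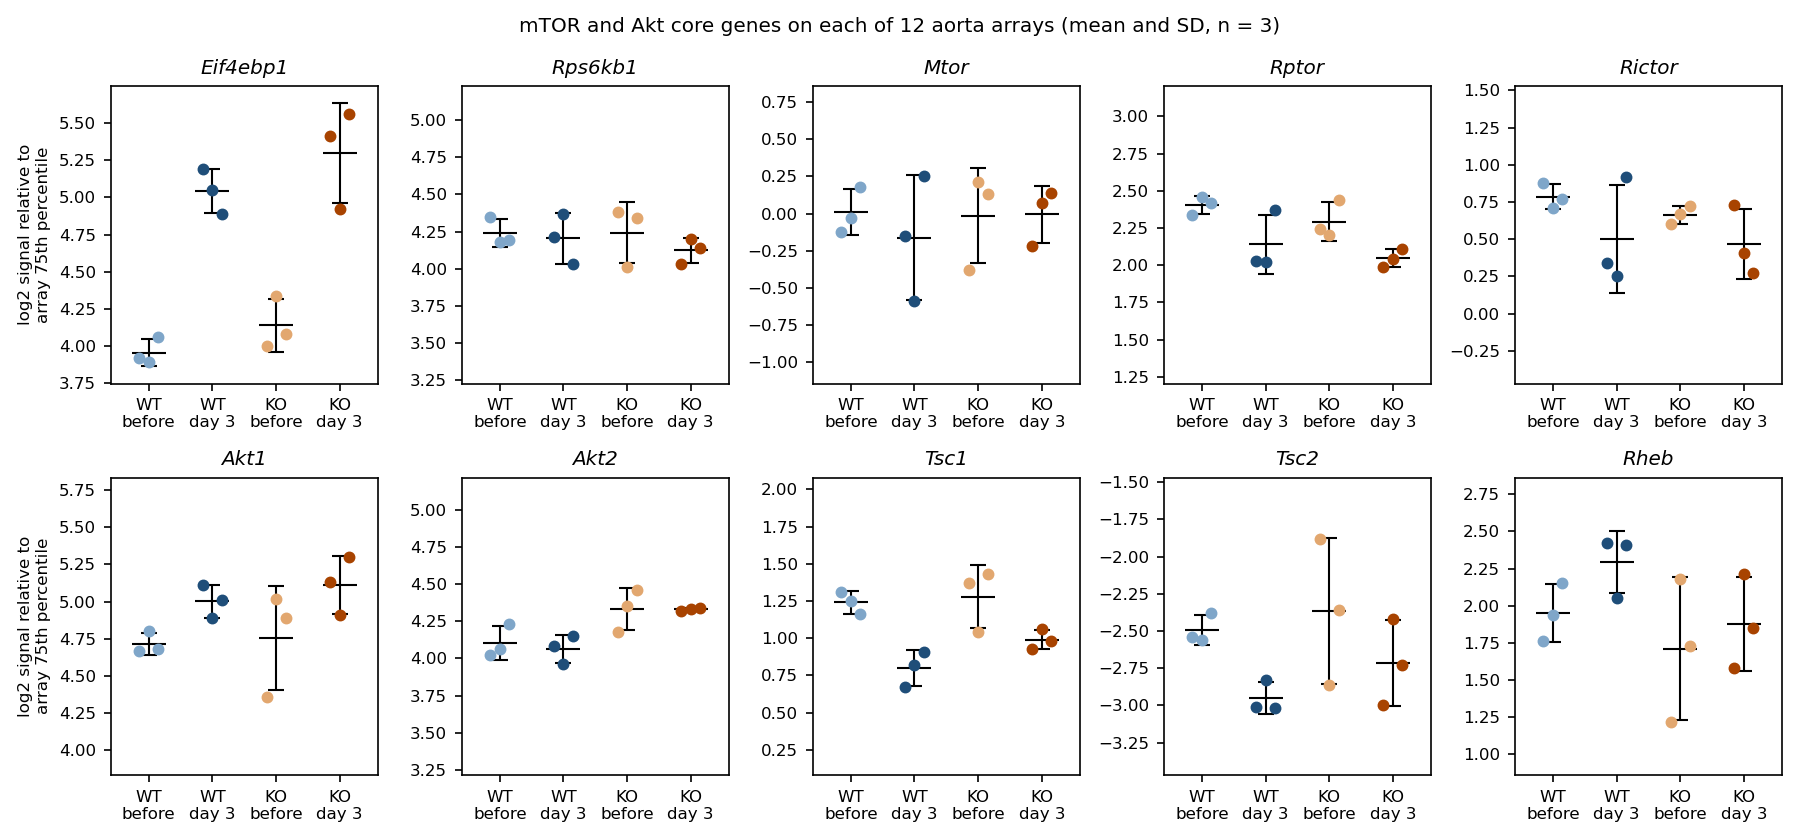
Level of each core gene (log2 signal relative to the array's 75th percentile) on the 12 arrays, by group; points are arrays, bars the mean and SD (n = 3), and the vertical scale spans at least 2 log2 units in every panel. Eif4ebp1 lies between 3.89 and 4.34 on the arrays before challenge and between 4.89 and 5.56 at day 3, while the groups of Mtor, Rps6kb1 and Rictor overlap.

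Eif4ebp1 encodes 4E-BP1, which binds the cap-binding factor eIF4E and holds back translation until mTORC1 phosphorylates it. Its single probe lies at chr8:28385887-28385946 (mm9, plus strand). In WT mice the level was 3.92, 3.89 and 4.06 before challenge and 5.19, 5.05 and 4.89 at day 3. On smSocs3-KO arrays it was 4.0, 4.34 and 4.08 before challenge and 5.41, 4.92 and 5.56 at day 3. All 6 day 3 arrays lay above all 6 arrays before challenge, a separation that 8.03% of all genes showed.

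The difference in Eif4ebp1 was 1.09 ± 0.19 (SE) in WT, a 2.13-fold rise with limma adjusted p = 0.0315, and 1.15 ± 0.19 in smSocs3-KO, a 2.23-fold rise with adjusted p = 0.0195. In the mean response it was 1.12 ± 0.13 (95% confidence interval 0.83 to 1.41, adjusted p = 0.00357). The order of the group means was smSocs3-KO day 3 (5.30 ± 0.33, SD, n = 3), WT day 3 (5.05 ± 0.15), smSocs3-KO before (4.14 ± 0.18) and WT before (3.96 ± 0.09). Neighbours in this order within a time point did not differ beyond their spread: the genotype difference was 0.19 (-0.23 to 0.60) before challenge and 0.25 (-0.16 to 0.66) at day 3, with adjusted p = 1 and 0.553. The response did not differ detectably between the genotypes either, with an interaction of 0.06 (-0.52 to 0.65, adjusted p = 1).

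The call for the mean response held in all 23 alternative settings (adjusted p 0.000493 to 0.0297). The WT call was lost in 9 of 24, among them without KO before replicate 4, WT day 3 replicates 1 or 3, or any WT array before challenge (adjusted p up to 0.154), and the smSocs3-KO call in 8 of 25, among them without KO before replicates 1 or 3 or KO day 3 replicates 2 or 5 and within slide 2 (1.09, adjusted p = 0.125), but the rise itself stayed between 0.83 and 1.36.

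Proliferation and macrophage markers moved with the same challenge. All 7 proliferation markers were called higher in the mean response. Of these, Bub1 was well above background on 6 arrays at most and Cdk1 on 7, both being dimmer before challenge. These 2 could pass the filter on dim probes through day 3 groups, where they were high, so their calls were favoured by the filter. The summed signal of the 7 was 1.76 to 2.51 times the 75th percentile in WT before challenge and 8.71 to 66.5 in WT day 3. In smSocs3-KO it was 2.10 to 2.45 before and 7.34 to 24.9 at day 3. Of the 7 macrophage markers, 6 were called higher, Cd68 by 1.82 and Emr1 by 0.90. The summed signal of that list (192 to 238, 161 to 277, 139 to 332 and 171 to 214 in the same order) was mostly that of the probe for Itgam, the marker not called (-0.31, adjusted p = 0.413), and does not describe the other 6. Of the 8 smooth muscle markers, Myh11 was called lower (-1.09) and the sums were 2737 to 3032, 2150 to 2765, 2445 to 3602 and 1750 to 2078. The part of cell composition in the rise of Eif4ebp1 was not tested. In bulk tissue, more cells of a type and more RNA per cell cannot be told apart. WT day 3 replicate 4, with the lowest Mki67 of its group, also had the lowest Eif4ebp1 of its group, and without it the WT difference was 1.17 (limma adjusted p = 0.00666). The smSocs3-KO day 3 arrays did not share that order: replicate 5 had the lowest Mki67 (0.94) and the highest Eif4ebp1 (5.56) of its group.

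Rps6kb1 encodes p70 S6 kinase, the other main mTORC1 substrate. On its brightest probe (chr11:86316064-86316123, minus strand) the level was 4.35, 4.18 and 4.19 in WT before challenge and 4.21, 4.37 and 4.03 at day 3, and 4.38, 4.01 and 4.34 and then 4.03, 4.20 and 4.14 in smSocs3-KO. The groups overlapped in both genotypes. The difference was -0.04 (-0.38 to 0.31) in WT and -0.12 (-0.46 to 0.23) in smSocs3-KO, and its sign turned under median scaling. A second probe gave 0.19 and the probe printed above gave -0.16 in the mean response, none called, and the last of its 4 probes was not well above background on any array.

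Mtor encodes the kinase itself. Its main probe (chr4:147931250-147931309, plus strand) read -0.12, -0.03 and 0.18 in WT before challenge and -0.15, -0.59 and 0.25 at day 3. The smSocs3-KO arrays read -0.38, 0.21 and 0.13 and then -0.22, 0.07 and 0.14. WT day 3 arrays lay on either side of the WT arrays before challenge, and the mean response was -0.08 (-0.45 to 0.29, adjusted p = 0.736). A second, dimmer Mtor probe assigned to another transcript (chr4:147829016-147829075) gave 0.38 ± 0.16 in the mean response, with an adjusted p over all kept probes of 0.11, so the 2 probes differed in sign and neither was called.

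Rptor, the scaffold that brings substrates to mTORC1 (probe at chr11:119760596-119760655, plus strand), was not called. It read 2.34, 2.46 and 2.42 in WT before challenge and 2.03, 2.02 and 2.37 at day 3, and 2.24, 2.2 and 2.44 against 1.99, 2.04 and 2.11 in smSocs3-KO. The smSocs3-KO groups did not overlap, which was true of 28.1% of all genes, and in WT replicate 4 at day 3 lay among the arrays before challenge. The mean response was -0.25 ± 0.10 (adjusted p = 0.0984). Without WT day 3 replicate 4 it was -0.31 with limma adjusted p = 0.0378, the only omission among the 12 arrays that gave a call (range -0.31 to -0.22).

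Rictor, the defining subunit of mTORC2 (chr15:6749416-6749475, plus strand), read 0.88, 0.71 and 0.77 in WT before challenge and 0.34, 0.25 and 0.92 at day 3. On smSocs3-KO arrays it read 0.60, 0.67 and 0.72 and then 0.73, 0.41 and 0.27. One day 3 array of each genotype was as high as the arrays before challenge. The mean response of -0.24 ± 0.14 was not called (limma adjusted p = 0.225). Without WT day 3 replicate 4 it was -0.34 with adjusted p = 0.0488, the only omission among the 12 arrays that gave a call. Over the 12 omissions it ran from -0.34 to -0.17, and under median scaling it was -0.04 (adjusted p = 0.907).

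Tsc1 encodes hamartin, the stabilizing subunit of the complex that restrains Rheb. Its probe (chr2:28546610-28546669, plus strand) read 1.31, 1.25 and 1.16 in WT before challenge and 0.67, 0.82 and 0.91 at day 3, with no overlap, as in 35.3% of all genes. On smSocs3-KO arrays it read 1.37, 1.04 and 1.43 before challenge and 0.93, 1.06 and 0.98 at day 3, where replicate 3 before challenge lay within the day 3 range. Neither response was called singly (-0.44 ± 0.15, adjusted p = 0.0996, and -0.29 ± 0.15, adjusted p = 0.266).

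Over both genotypes, Tsc1 fell by 0.36 on the log2 scale (95% confidence interval -0.60 to -0.13, a fold of 0.777, limma adjusted p = 0.0336). The difference was negative in all 23 alternatives, between -0.44 and -0.16, but the call held in only 11 of them. It was lost without 8 of the 12 arrays (KO day 3 replicates 2 or 5, KO before replicates 1 or 4, WT day 3 replicates 1 or 3, WT before replicates 1 or 2; adjusted p 0.0541 to 0.088) and under median scaling (-0.16, adjusted p = 0.431), a scaling that moved the median of all genes to 0.16. It was also lost with the replicate block (-0.34, adjusted p = 0.152), with slide as a block (-0.34, adjusted p = 0.0541) and with no filter on dim probes.

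Tsc2 encodes tuberin, the subunit that acts on Rheb and the one Akt phosphorylates. Its probe (chr17:24732882-24732941, minus strand) read -2.54, -2.56 and -2.38 in WT before challenge and -3.01, -2.83 and -3.02 at day 3. On smSocs3-KO arrays the range before challenge, -2.86 to -1.88, covered most of the day 3 range, -3.00 to -2.42. The mean response was -0.40 ± 0.17 and was not called (adjusted p = 0.104). Leaving out KO before replicate 3 gave -0.52 with limma adjusted p = 0.0295, the only omission among the 12 arrays that gave a call. Over the 12 omissions the difference ran from -0.52 to -0.28, and under median scaling it was -0.20 (adjusted p = 0.371).

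Rheb, the GTPase between the Tsc complex and mTORC1, was read by 2 overlapping probes that gave 0.26 ± 0.18 and 0.27 ± 0.19 in the mean response, and by another that was not well above background on any array. The main probe (chr5:24309069-24309128, minus strand) read 1.76, 1.94 and 2.15 in WT before challenge and 2.42, 2.05 and 2.41 at day 3. On smSocs3-KO arrays it read 1.22, 2.18 and 1.73 and then 1.58, 2.21 and 1.85. The smSocs3-KO groups overlapped, and neither genotype's response was called (0.35, adjusted p = 0.404, and 0.17, adjusted p = 0.693, the latter turning to -0.07 within slide 2).

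Akt1 and Akt2 encode closely related kinases that act above mTORC1 and below mTORC2, Akt1 with a main role in growth and survival and Akt2 in the insulin response. Akt1 (chr12:113892079-113892138, minus strand) read 4.67, 4.80 and 4.68 in WT before challenge and 5.11, 4.89 and 5.01 at day 3. On smSocs3-KO arrays it read 4.36, 5.02 and 4.89 and then 5.13, 4.91 and 5.30. The WT groups did not overlap, as in 35.3% of all genes, and the mean response of 0.32 ± 0.13 was not called (limma adjusted p = 0.105).

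Akt2 differed little with challenge on its brightest probe (chr7:28424405-28424464, plus strand), which read 4.02, 4.06 and 4.23 in WT before challenge and 4.08, 3.96 and 4.15 at day 3. On smSocs3-KO arrays it read 4.18, 4.35 and 4.46 and then 4.32, 4.33 and 4.34. The mean response was -0.02 (-0.24 to 0.20), and its sign turned under median scaling. A probe that overlaps it gave -0.03 and the probe printed above -0.09. The probe for another annotated transcript (A_66_P135179, chr7:28425375-28425434) gave -0.57 ± 0.22, adjusted p over all kept probes 0.0892, and read -1.44, -1.61 and -0.39 in WT at day 3 against -0.61, -0.48 and -0.50 before, so WT day 3 replicate 4 again lay apart from its group.

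**Figure D2:**
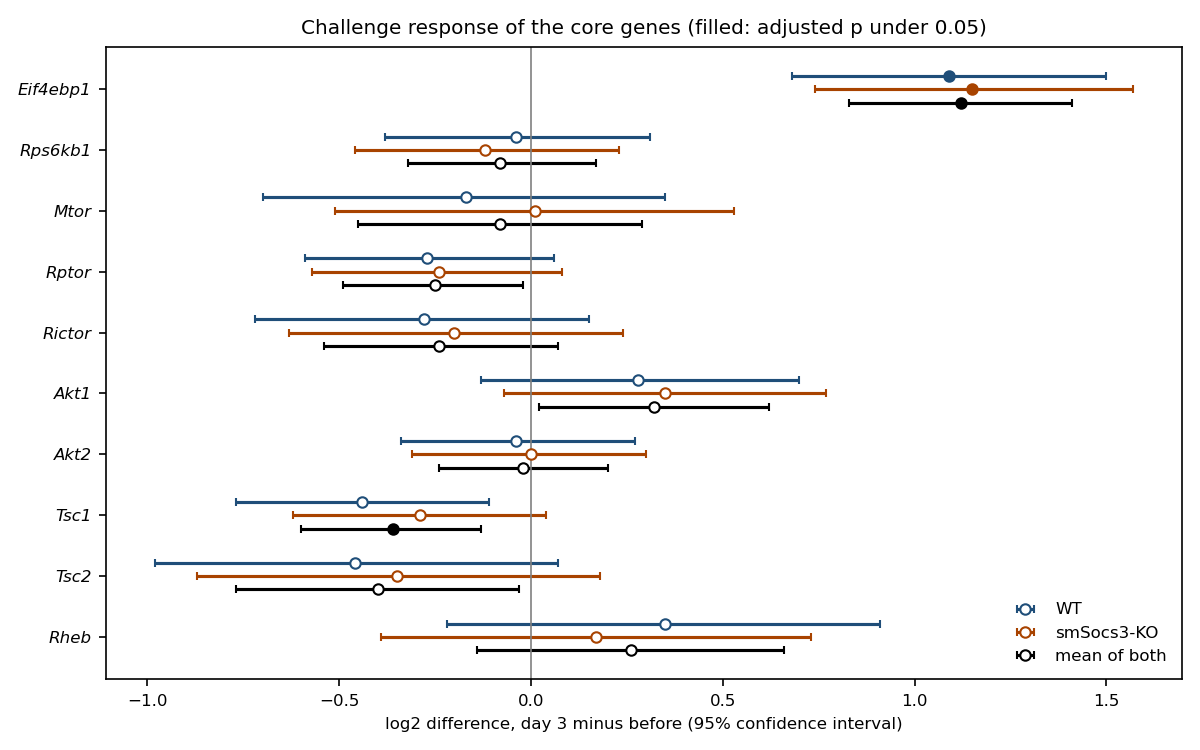
Challenge response of each core gene as the log2 difference, day 3 minus before challenge, in WT, smSocs3-KO and the mean of both; bars are 95% confidence intervals from limma and filled points have an adjusted p under 0.05. Eif4ebp1 is the member whose intervals lie wholly above 0 in both genotypes, and Tsc1 is filled in the mean response alone (-0.36).

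**Figure D3:**
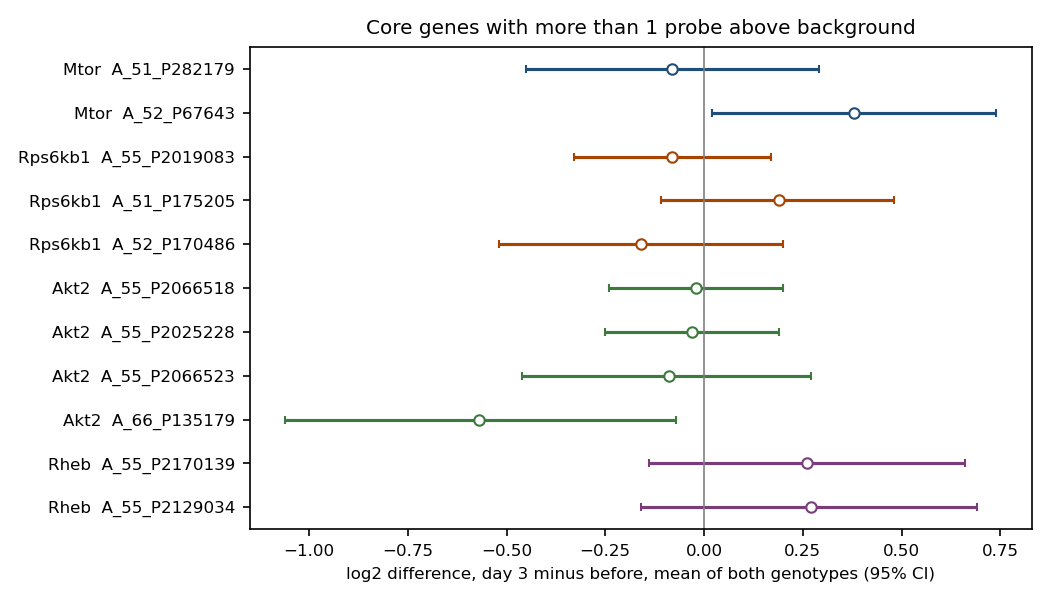
Mean challenge response (log2 difference with its 95% confidence interval) of every kept probe for the 4 core genes with more than 1. The Mtor probes point in opposite directions (-0.08 and 0.38), one of the Akt2 probes reads -0.57 where the others lie near 0, and no probe was called.

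No member was called between genotypes, a comparison in which genotype and slide largely cannot be told apart. Before challenge, 0 of 10 were called and 0.0264% of all genes were, with 0 members at an unadjusted p under 0.05 where 4.4% of all genes were. In the fit without slide the member differences ran from -0.24 (Rheb) to 0.23 (Akt2), no confidence interval reached beyond -0.80 or 0.65, and adjusted p was 1 throughout. Within slide 1, smSocs3-KO before replicate 1 can be set against the 3 WT arrays, as values with no test. There Rheb was 0.73, Mtor 0.39 and Akt1 0.36 lower, and Tsc2 was 0.61 and Akt2 0.08 higher. The other members lay between -0.19 (Rictor) and 0.14 (Rps6kb1).

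At day 3, 0 of 10 members and 1.11% of all genes were called by limma, with 0 members at an unadjusted p under 0.05 where 16.2% of all genes were. The differences ran from -0.42 ± 0.26 (Rheb) to 0.26 ± 0.14 (Akt2), the smallest adjusted p was 0.378, and intervals lay between -0.98 and 0.76. The groups of Akt2 and Tsc1 (difference 0.19) did not overlap, as in 20.5% of all genes. Since the WT day 3 arrays were all on slide 1 and the smSocs3-KO day 3 arrays all on slide 2, genotype and slide cannot be told apart here other than through the single smSocs3-KO array on slide 1. The interaction, which asks whether the challenge response differed between genotypes, ran from -0.18 (Rheb) to 0.18 (Mtor) over the members. None was called by limma (smallest adjusted p 0.996), none had an unadjusted p under 0.05, and 0 of all genes were called where 1214 (5.33%) had an unadjusted p under 0.05.

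The pathway around the core was read through 8 lists with 115 genes, 111 of them tested. In the mean response 19 rose and 7 fell, 23.4% of the 111 beside 22.7% of all genes, and their median difference was 0.09 beside -0.05. In WT, 4 of 111 rose and none fell (3.6% beside 4.68% of all genes), and in smSocs3-KO 7 rose and none fell (6.31% beside 2.45%). Without WT day 3 replicate 4 these counts were 15 in WT and 11 in smSocs3-KO, while they were 0 in WT without KO before replicate 4, WT day 3 replicates 1 or 3 or any WT array before challenge, and 0 in smSocs3-KO without KO before replicates 1 or 3 or KO day 3 replicate 5. The share called in the lists was thus near that of all genes in the mean response.

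Genes listed as transcription outputs of mTORC1, enzymes of serine, one-carbon and asparagine metabolism, amino acid transporters and transcription regulators, had a median of 0.47 in the mean response. Of the 13 tested, 7 rose and 2 fell, where 13.6% of all genes rose and 9.18% fell, shares that stand beside the list counts that follow as well. The lists were chosen with earlier results of these data known, so a list's share of called genes is a description and not a test. Mthfd2, of mitochondrial one-carbon metabolism, rose by 1.66 ± 0.26 in WT and 1.29 ± 0.26 in smSocs3-KO. Psat1, of serine synthesis, rose by 2.42 ± 0.44 in WT (-0.10, -0.15 and -0.11 before against 2.99, 2.87 and 1.03 at day 3) and by 1.83 ± 0.31 in the mean response. Asns rose by 2.01 ± 0.45 in WT, from 0.33, 0.00 and 0.12 to 2.61, 2.60 and 1.26. Their day 3 levels in WT were lowest on replicate 4 for both genes. In smSocs3-KO, Psat1 and Asns were not called, while Mthfd2 was. In smSocs3-KO the Asns levels before challenge, 1.0, 1.08 and 1.31, lay above those of WT, a difference of 0.98 ± 0.45 that was not called (adjusted p = 1). The transcript of Atf4, the factor that reads TGATGNAA in the Asns promoter, differed by 0.13 ± 0.15 (adjusted p = 0.526).

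The other called genes of that list, named here after their values were seen, were the amino acid transporter subunits Slc7a5 (0.79) and Slc3a2 (0.47), Hif1a (0.87) and the sterol regulator Srebf2 (0.75), which rose, and Srebf1 (-0.54) and the mitochondrial coactivator Ppargc1a (-0.74), which fell. The rise of Srebf2 lay mostly in smSocs3-KO, where its mean went from -2.38 to -1.07. In WT it went from -2.86 to -2.67. Slc7a5 and Slc3a2 form one transporter for large neutral amino acids.

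Among translation outputs, 2 of 12 rose and 1 fell (median 0.17). Eif4g1, the scaffold that binds eIF4E in competition with 4E-BP1, rose by 0.59 ± 0.13 in the mean response, and Eef2k, the kinase that slows elongation, by 0.74 ± 0.14. For Eef2k the response was 0.18 (adjusted p = 0.578) in WT and 1.29 in smSocs3-KO, with an interaction that was not called. Eif4ebp2, the paralog of Eif4ebp1, fell by 0.47 on the log2 scale (adjusted p = 0.0433), from 3.46, 3.41 and 3.37 to 2.74, 2.83 and 3.45 in WT and from 2.87, 3.46 and 3.29 to 2.66, 2.63 and 2.71 in smSocs3-KO. WT day 3 replicate 4 lay within the range before challenge. Eif4ebp1 and Eif4ebp2 thus had differences of opposite sign, while Eif4ebp3 (-0.13, adjusted p = 0.429) was not called. Rps6kb2, the paralog of Rps6kb1, differed by -0.27 (adjusted p = 0.0967).

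Partners within the mTOR complexes and the inputs were mostly not called. Of 11 complex partners, Prr5 (Protor-1, an mTORC2 subunit) rose by 0.84 ± 0.21 in WT and 0.78 ± 0.15 in the mean response. In the lysosomal branch, which senses amino acids through the Rag GTPases and the Ragulator complex, 3 of 25 rose and 2 fell: the Ragulator subunits Lamtor1 (0.60) and Lamtor4 (0.57) and Sec13 (0.76) were higher, and Rragb (-0.73) and Fnip2 (-0.54) lower. Of 9 energy and stress inputs, Ddit4 rose (1.82 in the mean response, with 0.57 and adjusted p = 0.57 in WT and 3.08 in smSocs3-KO), and the AMPK subunit Prkab2 (-0.63) and its upstream kinase Stk11 (-0.43) fell.

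Inputs from PI3K gave 3 rises among 18 genes with a median of 0.01. They were Inpp5d (1.38), Pik3cg (1.07) and Pik3r5 (1.42), all known from blood cells, and they rose beside the macrophage markers given above, whose part was not tested. Akt and mTORC2 substrates gave 2 rises among 13, Tbc1d4 (0.88), which controls glucose transporter traffic, and the cell death protein Bad (0.43). None of the 10 autophagy genes was called by limma, and 3 had an unadjusted p under 0.05.

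**Figure D4:**
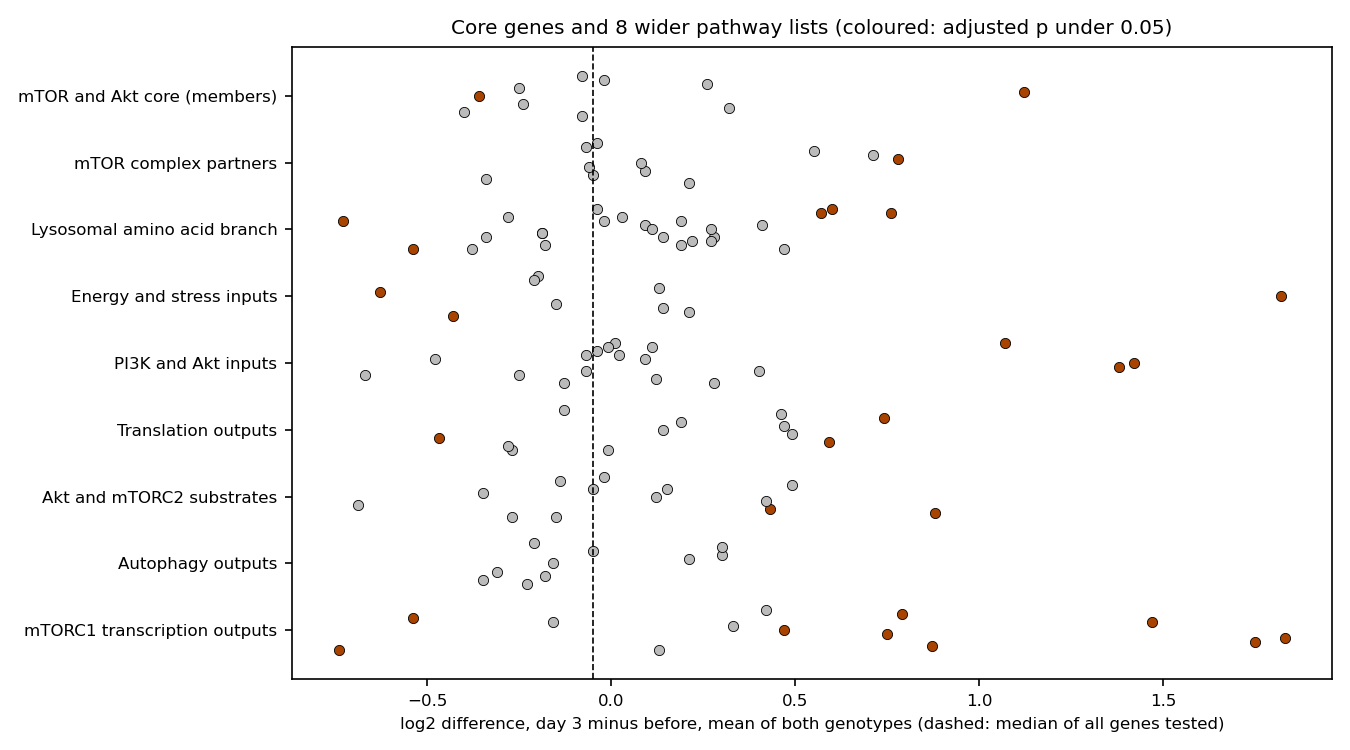
Mean challenge response (log2 difference) of the core genes and of each tested gene of the 8 wider lists; coloured points have an adjusted p under 0.05, vertical scatter within a list carries no value, and the dashed line is the median of all genes tested (-0.05). The transcription outputs of mTORC1 have the most called genes (9 of 13) and the autophagy list has none, in lists chosen with earlier results of these data known.

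At day 3, 4 of the 111 wider genes were higher in smSocs3-KO than in WT aorta, among them Ddit4 and Deptor, which restrain mTOR (3.6% beside 1.11% of all genes called, 0.958% higher). Without KO day 3 replicates 3 or 5 the count was 1, without WT day 3 replicate 3 it was 2, and without WT day 3 replicate 4 it was 7. Ddit4, a stress-induced inhibitor of mTORC1, read 1.12, 0.78 and 0.88 in WT at day 3 and 3.62, 4.54 and 5.31 in smSocs3-KO, a difference of 3.56 ± 0.60 (adjusted p = 0.0253). Before challenge it read 0.26, 0.19 and 0.64 in WT and 0.87, 0.36 and 3.01 in smSocs3-KO, so 1 array was already high. Deptor, an inhibitory subunit of both mTOR complexes, read -1.31, -1.14 and -1.07 in WT at day 3 and -0.08, -0.08 and -0.07 in smSocs3-KO, a difference of 1.1 ± 0.14 (adjusted p = 0.0103). Eef2k was higher by 1.18 ± 0.20 and Srebf2 by 1.60 ± 0.25.

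Marker lists had medians on either side of 0 in the same comparison, though few of their genes were called. The median difference of the 4 mesothelial markers was 2.59, with all 4 higher and none called. Before challenge it was 2.01, again with none called. That of the 7 proliferation markers was -1.44, with all 7 lower and none called. Of the 5 adipocyte markers tested, 4 were higher, 1 was lower and none was called (median 1.02). Of the 6 fibroblast markers 2 were called higher (median 0.39), and of the 7 macrophage markers 1 (median 0.64). Of the 8 smooth muscle markers 7 were lower (median -0.27), and of the 5 endothelial markers 4 were lower (median -0.43). The median of the 5 lymphocyte markers tested was 0.39 (3 higher, 2 lower) and of the 4 striated muscle markers tested 0.14 (2 higher, 2 lower). No gene of these last lists, from smooth muscle on, was called. Their part in the differences of Ddit4, Deptor, Eef2k and Srebf2 was not tested.

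With slide as a block, which leaves these differences to rest on 1 array, they kept their sign (Ddit4 2.75, Deptor 1.15, Eef2k 1.11, Srebf2 0.83) and none of the 4 was called, nor was any other gene in that comparison. In smSocs3-KO the challenge response of Ddit4 was 3.08 ± 0.60, of Srebf2 1.31 ± 0.25, of Eef2k 1.29 ± 0.20, of Inpp5d 1.76 ± 0.31, of Tbc1d4 1.05 ± 0.21 and of Deptor 0.71 ± 0.14, and all were called in the 12-array fit. With slide as a block these 6 calls and that of Mthfd2 were lost (adjusted p 0.0611 to 0.115, Ddit4 2.81, Srebf2 1.06, Eef2k 1.27, Inpp5d 1.68, Tbc1d4 0.87, Deptor 0.73, Mthfd2 1.38), and they were lost with the replicate block too (adjusted p 0.286 to 0.605). In WT the response of Deptor was -0.53 (adjusted p = 0.0593). The interaction of Deptor was 1.23 ± 0.20, with an unadjusted p of 9e-05 and an adjusted p of 0.29.

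Smaller differences named by the same rule did not pass. Before challenge the genes of smallest p were Tti2 (-1.93, adjusted p = 0.385), Asns, Srebf2 (0.48), Rps6 (0.24) and Ddit4 (1.05), the last 4 with adjusted p = 1. Lamtor1 in WT (0.68, adjusted p = 0.05 when rounded) and Ndrg1 at day 3 (0.91, adjusted p = 0.092) fell short as well. In the interaction, Eef2k (1.11), Srebf2 (1.13), Ddit4 (2.51) and Prkca (-0.65) had adjusted p between 0.704 and 0.922.

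**Figure D5:**
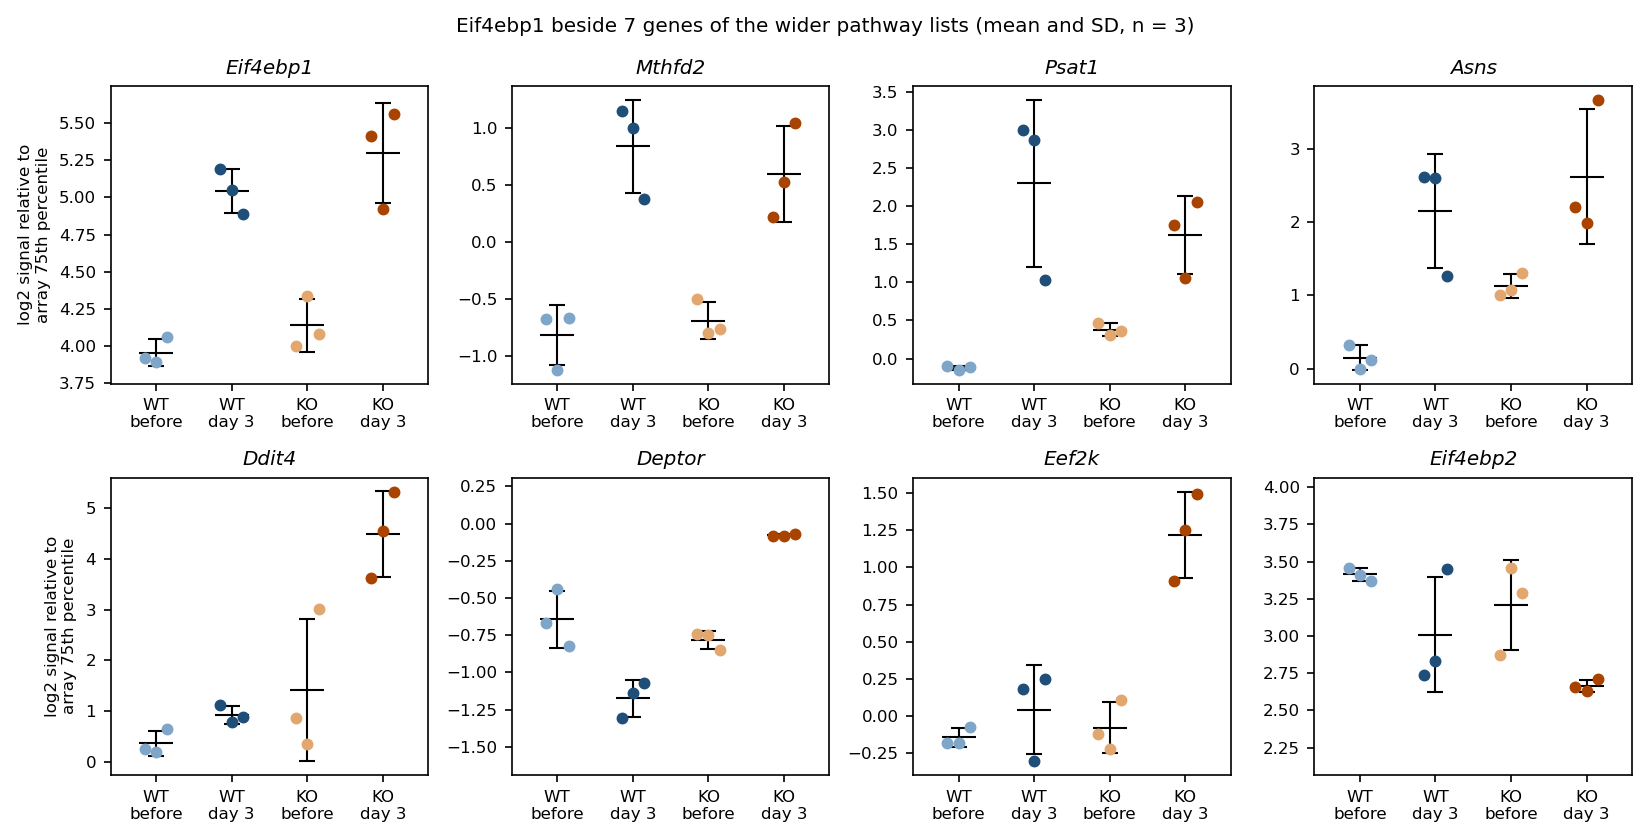
Levels of Eif4ebp1 and 7 genes of the wider lists (log2 signal relative to the array's 75th percentile) on the 12 arrays, by group; points are arrays and bars the mean and SD (n = 3). Mthfd2, Psat1 and Asns are higher at day 3 in both genotypes (Psat1 and Asns not called in smSocs3-KO) with WT replicate 4 the lowest WT day 3 array. Ddit4, Deptor and Eef2k are higher on the smSocs3-KO day 3 arrays than on any WT array.

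Eif4ebp1 had the widest range of group means among the members (1.34; the others spanned 0.12 to 0.59). The 5 genes whose levels followed it most closely over the 12 arrays were Scamp3 (Pearson r = 0.986), Uxt (0.980), Cib1 (0.979), Gm5068 (0.975) and Tradd (0.973), as a description over arrays that share the challenge and the slides. In the mean response Scamp3 rose by 0.64, Uxt by 0.63, Cib1 by 0.79, Gm5068 by 0.76 and Tradd by 0.53.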

How the data were processed

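Aortic RNA was measured on 12 one-colour Agilent arrays, 3 per group; groups and replicates follow the labels. The authors deposited each array's scanner output, in which processed signal is a background-subtracted intensity per spot (Feature Extraction, version 10.7.1.1 in the file headers, 9.5.1.1 per the labels). They also deposited a table of normalized intensity values, used as an alternative.

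From these, log2 processed signal minus the array's 75th percentile was computed without control or outlier spots, and spots of a probe were averaged. A probe was kept (32283 of 55681) where some group had it well above background on each array, and the brightest kept probe stood for a gene. The 4 group means were fitted with limma 3.58.1 in R 4.3.3, with p-values adjusted over all 22761 genes. The script was tested on simulated data. The number of arrays limits the precision. Gene names are those of the array design, and 5 list genes were matched through RefSeq synonyms; no mm9 annotation was used, so exon or UTR positions are not given for probes.

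The members and lists were chosen with earlier results of these data known. Named were the 10 members with all probes; per comparison, called genes of the 8 wider lists (the 10 of smallest p, or up to 5 of smallest p where fewer than 5 passed); and the 5 genes most correlated with the member of widest range. Further genes called in the mean response fell outside this rule and were named with their values known. They were Eif4ebp2, Lamtor4, Sec13, Rragb, Fnip2, Stk11, Pik3cg, Pik3r5 and Bad, beside those marked so above. Their values in that response were not followed through the alternatives. Same-numbered arrays were not paired in the main fit. Alternatives changed background correction, scaling, filter, probe rule, variance model, slide or replicate block, and left out each array.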

Additional observations from a re-analysis of the deposited data

Results flagged for a closer look

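Deptor, an inhibitory subunit of the mTOR complexes, had challenge differences of opposite sign: on all 3 WT day 3 arrays it lay below the mean of the WT arrays before challenge, and on all 3 smSocs3-KO day 3 arrays above the mean of the smSocs3-KO arrays before challenge. The interaction was 1.23 ± 0.20 in log2 (unadjusted p = 9e-05, limma adjusted p = 0.29) and did not pass the threshold.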

How the results depend on the processing

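The number of members called in the WT response (1 of 10) became 2 with normexp and quantile normalization (Eif4ebp1 and Rptor) and 0 with no filter on dim probes, with only the compared groups and with the replicate block. In the smSocs3-KO response (1 of 10) it became 0 with only the compared groups, the replicate block, slide as a block and within slide 2. In the mean response (2 of 10) it became 4 with normexp and quantile normalization (Eif4ebp1, Tsc1, Rptor and Akt2) and 1 under median scaling, no filter, the replicate block and slide as a block. Leaving out each array gave 0 to 1, 0 to 1 and 1 to 4 members called in these responses, and the cause was not tested. The counts of members called for genotype and interaction stayed at 0 in every setting.

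Signs turned for small differences that were not called. Under median scaling Akt2 was 0.15 in WT, 0.21 in smSocs3-KO and 0.18 in the mean response, Rps6kb1 0.16, 0.09 and 0.12, Mtor 0.02 in WT and 0.12 in the mean, and Rictor 0.01 in smSocs3-KO; this scaling moved the median of all genes to 0.17, 0.15 and 0.16. The mean of all kept probes gave Mtor 0.05 in WT and 0.15 in the mean, and normexp gave Akt2 0.05 in smSocs3-KO and 0.01 in the mean. Slide as a block and the fit within slide 2 each gave -0.17 for Mtor and -0.07 for Rheb in smSocs3-KO, and the block gave -0.04 for Srebf2 before challenge and -0.00 for the Eif4ebp1 interaction. Over the arrays left out, ranges that crossed 0 included, in WT, Akt2 -0.08 to 0.03, Mtor -0.38 to 0.04 and Rps6kb1 -0.12 to 0.05; in smSocs3-KO, Akt2 -0.07 to 0.06, Mtor -0.17 to 0.12 and Rheb -0.07 to 0.41; in the mean, Akt2 -0.06 to 0.01 and Mtor -0.19 to 0.03; Rheb before challenge -0.47 to 0.01; and the Eif4ebp1 interaction -0.07 to 0.25.

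Same-numbered arrays of different groups had correlations of their deviations from -0.403 to 0.464. With values of both signs and 3 arrays per group, these do not settle whether the numbers pair the arrays. With the replicate block, 895 genes were called in the mean response (5178 without), Eif4ebp1 was still called there and not in WT (1.20) or smSocs3-KO (0.88), and in smSocs3-KO Akt2 was 0.04 and Rictor 0.02, with Eif4ebp1 at -0.03 for genotype at day 3 and -0.32 for the interaction. Over all genes, 1065 were called in WT, from 0 to 3628 with an array left out; 0 with only the compared groups. For smSocs3-KO the count was 557 (42 to 1918), for the mean response 5178 (2521 to 6435) and for genotype at day 3 253 (45 to 615; 0 with slide as a block).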
